A study of Mus musculus with 52 samples.

Results

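Open chromatin was compared between vascular endothelial cells (ECs) of the anterior and the posterior lobe of the mouse pituitary. The measurements were ATAC-seq peak lists, in which a transposase marks accessible DNA and a peak is a stretch with more transposase cuts than its surroundings. The series held 52 samples, of which 12 were ATAC-seq libraries and 4 of those are the members described here: wild-type (WT) anterior pituitary ECs, replicates 1 and 2, and WT posterior pituitary ECs, replicates 1 and 2. All 4 came from adult male mice of the genotype Tie2-GFP, in which regulatory sequences of the endothelial receptor gene Tie2 drive GFP, and GFP-positive cells were sorted from pituitaries pooled over many mice. Where other libraries are used for comparison, they are ECs from the cerebellum of the same genotype (WT cerebellum), or ECs of mice with the genotype Tie2-GFP; Pdgfb-CreER; BcatEx3fl, in which an EC-expressed, tamoxifen-inducible Cre removes an exon of beta-catenin and stabilizes the protein (stabilized ECs), with 2 libraries for each tissue and genotype. From each library, nuclear peaks were kept where both the fold enrichment and the −log10 q exceeded 2, and the 20000 of highest −log10 q were used. Overlapping peaks of the 4 lists merged into 26598 regions. A region was anterior-only when it held such a peak in both anterior and in neither posterior library, and posterior-only in the opposite case. Of the 26598 regions, 1867 were anterior-only and 1370 were posterior-only. Per the study's methods, both lobes were separated from the pooled pituitaries of a replicate, so libraries of the 2 lobes can share mice. Whether libraries of the same number do is not stated. The p-values of the RNA comparison below measure the spread between pools.

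The anterior lobe is epithelial in origin and is fed by portal vessels from the hypothalamus, and the posterior lobe is an extension of the brain where hypothalamic axons release vasopressin and oxytocin. ECs of both lobes are fenestrated, with pores closed by a diaphragm of the protein Plvap, so that hormones cross the vessel wall, in contrast to the sealed capillaries of the cerebellum. Open chromatin in ECs lies at promoters, which many cell types share, and at distal enhancers, which tend to be more specific and carry short binding motifs of factors such as ETS, SOX, forkhead and bHLH (E-box) proteins.

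Windows reaching 100 bp to each side of the summit are shown first for 6 lobe-only regions, because these have the highest fold enrichments among lobe-only regions that have no peak of any rank in the lists of the other lobe. Windows that touch an exon or are mostly masked repeat are not printed. Sequences are of the + strand of the mouse genome GRCm38 (mm10), from RefSeq, 5′ to 3′, with matches to 8 motif families (ETS, SOX, forkhead, TCF/LEF, AP-1, GATA, KLF/SP and E-box, letters below) in capitals. The anterior-only windows are chr17:47059936-47060136, between genes and 49504 bp upstream of the nearest start, that of the ubiquitin ligase gene Ubr2; chr9:22800786-22800986, in an intron of Bbs9, which encodes a subunit of the ciliary BBSome; and chr2:61062220-61062420, between genes and 99128 bp upstream of Rbms1, an RNA-binding protein gene. The posterior-only windows are chr1:135230299-135230499, between genes and 28039 bp downstream of the start of Elf3, an epithelial ETS factor gene; chr13:51299047-51299247, between genes and 109492 bp upstream of S1pr3, a sphingosine-1-phosphate receptor gene; and chr15:50703951-50704151, in an intron of Trps1, which encodes a GATA-type zinc finger repressor.
Ubr2, anterior-only: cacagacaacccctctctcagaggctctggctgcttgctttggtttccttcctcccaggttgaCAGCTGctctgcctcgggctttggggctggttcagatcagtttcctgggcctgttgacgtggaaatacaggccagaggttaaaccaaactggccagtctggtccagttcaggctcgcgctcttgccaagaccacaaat
Bbs9, anterior-only: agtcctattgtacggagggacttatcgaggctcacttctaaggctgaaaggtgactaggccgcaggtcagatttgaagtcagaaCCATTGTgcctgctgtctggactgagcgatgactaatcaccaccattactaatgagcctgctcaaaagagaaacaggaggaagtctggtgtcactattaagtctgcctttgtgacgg
Rbms1, anterior-only: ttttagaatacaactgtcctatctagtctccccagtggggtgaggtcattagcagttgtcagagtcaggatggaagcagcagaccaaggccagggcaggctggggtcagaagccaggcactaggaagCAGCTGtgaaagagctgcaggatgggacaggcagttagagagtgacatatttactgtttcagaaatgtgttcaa
Elf3, posterior-only: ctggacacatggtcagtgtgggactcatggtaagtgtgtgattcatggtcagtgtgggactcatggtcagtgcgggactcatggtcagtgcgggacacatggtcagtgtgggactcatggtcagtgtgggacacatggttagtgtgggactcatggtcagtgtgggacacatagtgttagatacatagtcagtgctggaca
S1pr3, posterior-only: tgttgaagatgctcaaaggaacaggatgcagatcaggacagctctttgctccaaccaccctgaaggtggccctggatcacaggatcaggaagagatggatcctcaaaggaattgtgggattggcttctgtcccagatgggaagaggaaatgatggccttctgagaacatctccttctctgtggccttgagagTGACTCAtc
Trps1, posterior-only: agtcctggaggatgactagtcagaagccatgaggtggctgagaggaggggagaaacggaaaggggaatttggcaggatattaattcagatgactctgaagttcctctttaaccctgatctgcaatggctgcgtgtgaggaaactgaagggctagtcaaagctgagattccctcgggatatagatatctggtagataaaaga
The E-box CAGCTG, which reads the same on both strands, stands at chr17:47059999-47060004 in the Ubr2 window and at chr2:61062347-61062352 in the Rbms1 window. The Bbs9 window holds the SOX letters ACAATGG on the − strand at chr9:22800870-22800876. The S1pr3 window holds the AP-1 letters TGACTCA at chr13:51299239-51299245. The windows at Elf3 and in Trps1 hold none of the letters of these 8 families, and the Elf3 window is a short unit repeated in tandem that the repeat mask of the reference does not mark.

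Most regions were shared. All 4 libraries held a peak in 14286 regions (53.7% of 26598), 3 libraries in 2141, and a single library in 6176. Between replicates, 86.6% to 87.4% of the 20000 peaks of one library overlapped a peak of the other, and between lobes 77.7% to 78.6% of anterior peaks overlapped a posterior peak and 82.1% to 82.7% of posterior peaks an anterior one. Every comparison within a lobe thus gave a higher overlap than every comparison across lobes. Anterior-only regions made up 7.02% of all regions and posterior-only regions 5.15%. Both counts moved with the settings, to 487 and 559 with 10000 peaks per library, to 13450 and 316 with no limit on rank, and to 3172 and 470 with a fold over 4 and a −log10 q over 5, so that their order changed. For comparison, 3381 regions held a peak in 1 anterior library alone and 2795 in 1 posterior library alone, both more than the lobe-only counts. With 2 libraries against 2, an exact permutation test of any one region cannot go below a two-sided p = 0.333, so presence was counted without a test.

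**Figure D1:**
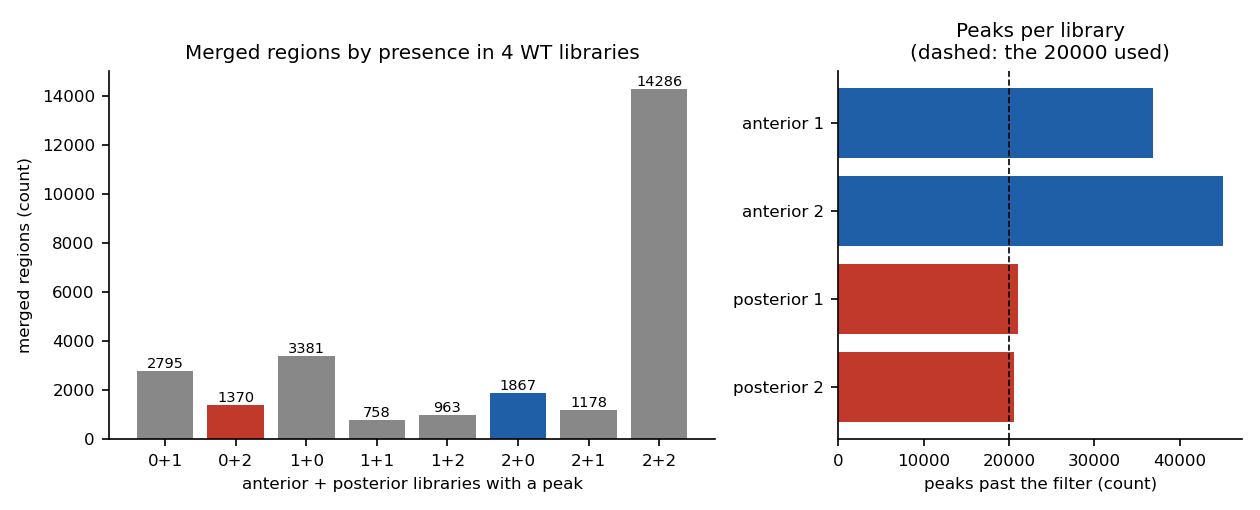
Left, number of merged regions (y axis) by how many anterior and how many posterior libraries held one of their 20000 peaks there (x axis, anterior + posterior), with anterior-only regions in blue and posterior-only in red. Right, peaks past the filter in each library (x axis) with the 20000 used as a dashed line. The 14286 regions in all 4 libraries outnumber every other pattern, and the posterior lists reach just past the line.

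The lists behind these counts were not alike. The authors' lists held 37540 and 45731 peaks in the anterior libraries and 21394 and 21151 in the posterior libraries. As a result, the 20000 peaks used reached down to a −log10 q of 16.8 and 40.8 in the anterior libraries but of 3.23 and 2.77 in the posterior libraries, which is close to the whole posterior list. The median fold enrichment of the peaks used was 10.3 and 12.1 in the anterior and 6.02 and 5.92 in the posterior libraries. At the edge of the choice, the last 10 peaks inside had median folds of 6.99 and 8.28 in the anterior libraries and 3.28 and 2.99 in the posterior libraries, against 5.37 and 7.40, and 3.01 and 2.98, for the first 10 outside. Fold enrichment is relative to each library's own local background, and the number of reads behind a peak is unknown. The letters in the deposited peak names were the same in anterior replicate 1, both posterior libraries and WT cerebellum, and different in anterior replicate 2 and all stabilized libraries. Within the first code alone, that is without anterior replicate 2, 3670 regions were anterior-only and 1894 posterior-only. Without anterior replicate 1, 3501 regions were anterior-only, and without posterior replicate 1 or 2, 2817 or 2787 regions were posterior-only, since presence is then asked of fewer libraries.

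The lobe-only sets therefore differed in kind. Of the 1867 anterior-only regions, 1705 had no peak of any rank in either posterior list, and the other 162 had a posterior peak whose fold was below both anterior folds (by at least 2-fold in 132). Of the 1370 posterior-only regions, 227 had no peak of any rank in either anterior list. The other 1143 did have a lower-ranked anterior peak, and in 748 of them the higher anterior fold was equal to or above the lower posterior fold. That left 622 posterior-only regions whose folds in both posterior libraries exceeded both anterior ones. The lower of both replicates' folds had a median of 8.05 in anterior-only regions (quartiles 6.81 and 9.66) and of 3.72 in posterior-only regions (quartiles 3.29 and 4.36). A posterior-only region was therefore, in most cases, one that ranked higher among posterior than among anterior peaks, whereas an anterior-only region was one where no posterior peak had been called. The main shares of the posterior set are given below also for the 622 and the 227 regions, subsets chosen after the data were seen.

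The strongest anterior-only regions were distal. The region near Ubr2, chr17:47059674-47060409, had folds of 18.6 and 18.3 in the anterior libraries. The region in Bbs9, chr9:22800318-22801279, had folds of 17.5 and 18.9. The region at chr2:61061927-61062846 near Rbms1 had folds of 17.2 and 17.6 and, among all 12 EC libraries, had a peak in the 4 anterior pituitary libraries only, at 13.6 and 16.7 in the stabilized ones. None of the other 8 EC libraries held a peak there. A region in an intron of the non-coding gene Gm27216, chr9:83246858-83247624, had folds of 17.2 and 16.8. Promoters were in the minority, at 2 of the 10 strongest: chr15:66500568-66501191 at the start of Lrrc6, a cilium assembly gene, with folds of 17.2 and 17.6, and chrX:7789411-7790207 at the start of Gripap1, with folds of 15.9 and 15.7. The Gripap1 promoter had a peak in each of the 10 EC libraries other than the WT posterior ones (fold 8.68 to 19.9), so that of the 12 EC lists only the WT posterior ones lacked it. The remaining 4 of the 10 lay near Sh2d4b, A1bg, Abhd17c and 5730522E02Rik, with folds of 15.2 to 17.3.

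The strongest posterior-only regions had lower folds, and those in the lead lay at gene starts. The region chr5:17574340-17574928 lies in an exon of Sema3c, 351 bp downstream of its start. Sema3c encodes a secreted guidance semaphorin. The region had folds of 10.1 and 11.1 in the posterior libraries. It also had folds of 11.7 and 10.9 in WT cerebellum. A region in an exon of Crispld1, 277 bp downstream of its start, chr1:17727112-17727805, had folds of 9.71 and 10.8 in the posterior libraries and of 10.4 and 17.4 in WT cerebellum. The tandem-repeat region near Elf3, chr1:135230260-135230556, had folds of 7.45 and 7.82. The region upstream of S1pr3, chr13:51298982-51299575, had folds of 6.57 and 7.09 and, outside the WT posterior libraries, a peak in the stabilized posterior libraries only (4.78 and 3.76). The intronic Trps1 region, chr15:50703795-50704282, had folds of 8.44 and 6.21. Among these 10 regions, 8 had a peak in both WT cerebellum libraries, against 4 of the 10 strongest anterior-only regions. By the same measure, a peak of any rank in both WT cerebellum libraries, the share was 62.3% of all 26598 regions, 46.7% of the 227 posterior-only regions with no anterior peak and 21.2% of the 1705 anterior-only regions with no posterior peak. A peak in both stabilized libraries of the same lobe was present for 10 of the 10 anterior-only and for 7 of the 10 posterior-only regions, against 99.2% of the 1705 and 25.6% of the 227. Over all regions these shares were 89.0% in the stabilized anterior and 78.5% in the stabilized posterior libraries.

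**Figure D2:**
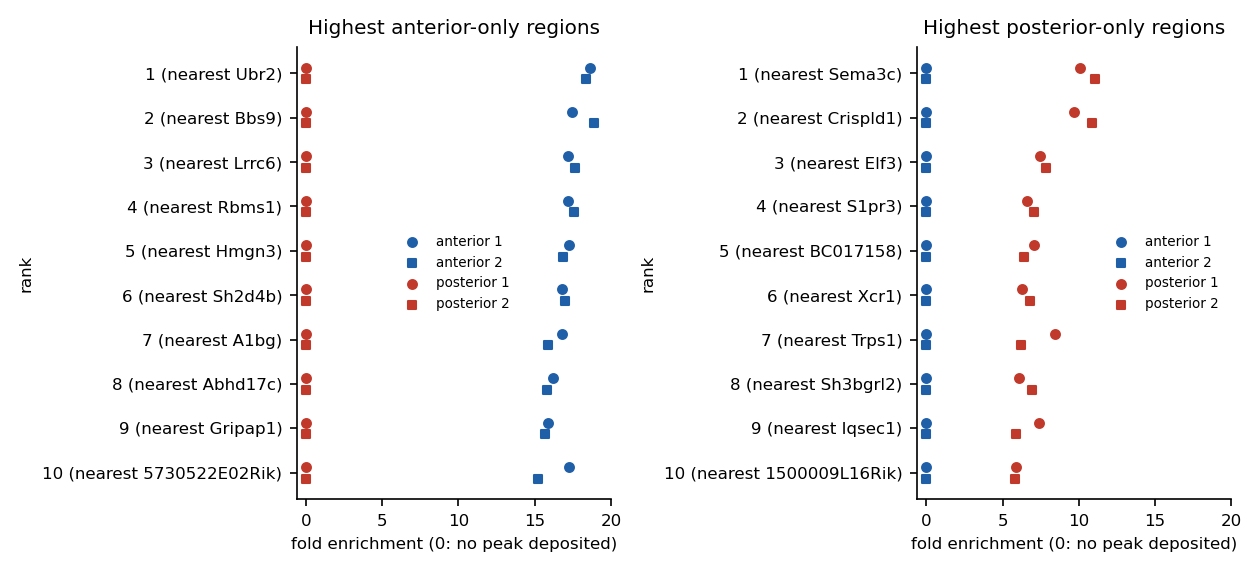
Fold enrichment over local background (x axis) of the 10 strongest lobe-only regions of each lobe with no peak in the lists of the other lobe (y axis, rank and nearest gene start), with a point for each of the 4 WT libraries and 0 for a library whose list has no peak there. The anterior-only regions lie between 15.2 and 18.9 in the anterior libraries, and the posterior-only regions between 5.79 and 11.1 in the posterior libraries.

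Lobe-only regions lay away from promoters in both lobes. The summit was within 1000 bp of a protein-coding transcription start in 8.62% of anterior-only regions (161 of 1867) and in 12.9% of posterior-only regions (177 of 1370), against 42.3% of all regions and 67.5% of those in all 4 libraries. For the 622 posterior-only regions with folds above both anterior libraries the share was 6.59%, and for the 227 with no anterior peak 3.96%. Introns held 52.2% of anterior-only and 42.3% of posterior-only summits, and 38.3% and 48.2% were intergenic, against 37.7% and 41.1% of all regions. The median distance to the nearest start was 28076 bp and 23261 bp, against 5824.5 bp for all regions. Median widths were 756 bp for anterior-only, 394.5 bp for posterior-only, 789 bp for all regions and 974 bp for regions in all 4 libraries.

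The lobes differed in repeat content. More than 50% of the window around the summit was masked as repeat in 32 anterior-only regions (1.71%) but in 436 posterior-only regions (31.8%), against 6.40% of all regions and 1.11% of regions in all 4 libraries. The anterior-only share thus lay below that of all regions and the posterior-only share above it. Chromosome Y held 103 of the posterior-only and 2 of the anterior-only regions, of 286 regions on it in all. Each mouse was male, so that sex did not differ between the libraries. Without chromosome Y, 1267 posterior-only regions remained, and without the mostly masked windows 934.

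Where lobe-only regions stood within 50 kb of each other, they were grouped into loci. The anterior-only locus with the most regions was chr8:18689691-18790832, around Angpt2 within the gene Mcph1. Angpt2 encodes the context-dependent ligand of the Tie2 receptor. Its 5 regions lay at 51718, 29700, -6122, -15379 and -48869 bp from the Angpt2 start (negative upstream) and had anterior folds from 7.39 to 11.5. A posterior peak was deposited at only the last of the 5, in replicate 2, with a fold of 3.10. Angpt2 RNA was at 51.3 and 28.4 TPM (length-normalized transcript abundance) in anterior ECs and at 13.9 and 9.05 TPM in posterior ECs, which do not overlap, but the difference did not pass the RNA test (edgeR adjusted p = 0.159). The 4 next loci held 4 regions each: at Rcsd1, in Syn3, in Syn3 around Timp3, which encodes an inhibitor of metalloproteinases, and at Itgb3, the integrin beta 3 gene. At Itgb3, chr11:104596288-104630767, none of the 4 regions had a posterior peak and anterior folds ran from 5.76 to 12.1. None of the genes inside these 5 loci was called by RNA.

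The posterior-only loci with the most regions were of another kind. The 5 leading ones held 16, 15, 11, 10 and 10 regions and covered multi-copy genes: the Speer4e cluster at chr5:14918787-15062380, stretches of chromosome Y around Gm21719 and Gm21860, the 4930572O03Rik cluster on chromosome 5, and a stretch of chromosome 8 near Gm21119. Between 46.8% and 93.4% of their windows' sequence was masked as repeat. The lower of the posterior folds in them ran from 2.12 to 4.93. Reads in near-identical copies cannot be placed with certainty, so the number of regions in these loci is uncertain. None of the genes inside them was called by RNA.

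Motif letters were counted in the windows of 100 bp to each side of the summit, on either strand, for 26 families. The shares below are for windows with the summit more than 1000 bp from a start, which leaves out promoters. ETS letters (CCGGAAGT or ACAGGAAG) stood in 15.2% of anterior-only windows and 3.77% of posterior-only windows, against 10.8% of all such windows. Forkhead letters (TGTTTAC or TGTTTGC) stood in 10.7% of anterior-only and 4.11% of posterior-only windows, against 7.31% of all. The E-box CAGCTG stood in 21.5% and 11.2%, against 17.6%. TCF/LEF letters (ATCAAAG or TTCAAAG), the motif family of the factors that work with beta-catenin, stood in 7.56% and 3.94%, against 5.16%. SOX letters (ACAATGG or AACAATAG) stood in 6.39% and 4.02%, against 5.17%. The nuclear receptor letters AAGGTCA stood in 7.15% and 2.77%, against 5.01%. Anterior-only windows thus lay above, and posterior-only windows below, the share of all distal windows for these 6 families. The same held for 18 of the 26 families, so nothing particular to the 6 is read from it. Among windows with a GC content of 45% to 55% it held for 11 of the 26. In the 622 and the 227 posterior-only regions, distal windows held ETS letters in 2.07% and 3.21%, forkhead letters in 3.96% and 4.13%, TCF/LEF letters in 2.75% of either and SOX letters in 2.58% and 1.83%.

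The 8 families where it did not hold were AP-1, CTCF, GATA, KLF/SP, POU1F1, SMAD, homeobox and paired-like homeobox. AP-1 letters (TGACTCA or TGAGTCA, each the reverse complement of the other) stood in 11.3% of anterior-only and 8.30% of posterior-only windows, both below the 13.9% of all distal windows. KLF/SP letters (GGGTGTGG or GGGCGTGG) went the other way, at 2.40% of anterior-only and 7.80% of posterior-only windows against 5.29%. GATA letters (AGATAAG or AGATAACA) stood in 3.46%, 3.10% and 2.85%. Windows also differed in base composition, with a mean GC content of 52.2% in anterior-only and 56.5% in posterior-only windows, against 59.5% in all regions. Among windows with a GC content of 45% to 55%, at any distance from a start, ETS letters stood in 15.8%, 4.88% and 12.5% of anterior-only, posterior-only and all windows, forkhead letters in 11.0%, 6.15% and 8.88%, and KLF/SP letters in 1.99%, 8.14% and 3.90%. In the same windows SOX letters stood in 6.70%, 5.97% and 5.79%, and TCF/LEF letters in 8.24%, 6.69% and 6.53%, so that the posterior-only share of these 2 families was no longer below that of all windows. Leaving out mostly masked windows, ETS letters stood in 14.8% of anterior-only, 5.46% of posterior-only and 11.0% of all windows. Families overlap in part, since ETS and PU.1 letters share their core, and a letter match is a description, not a binding site.

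**Figure D3:**
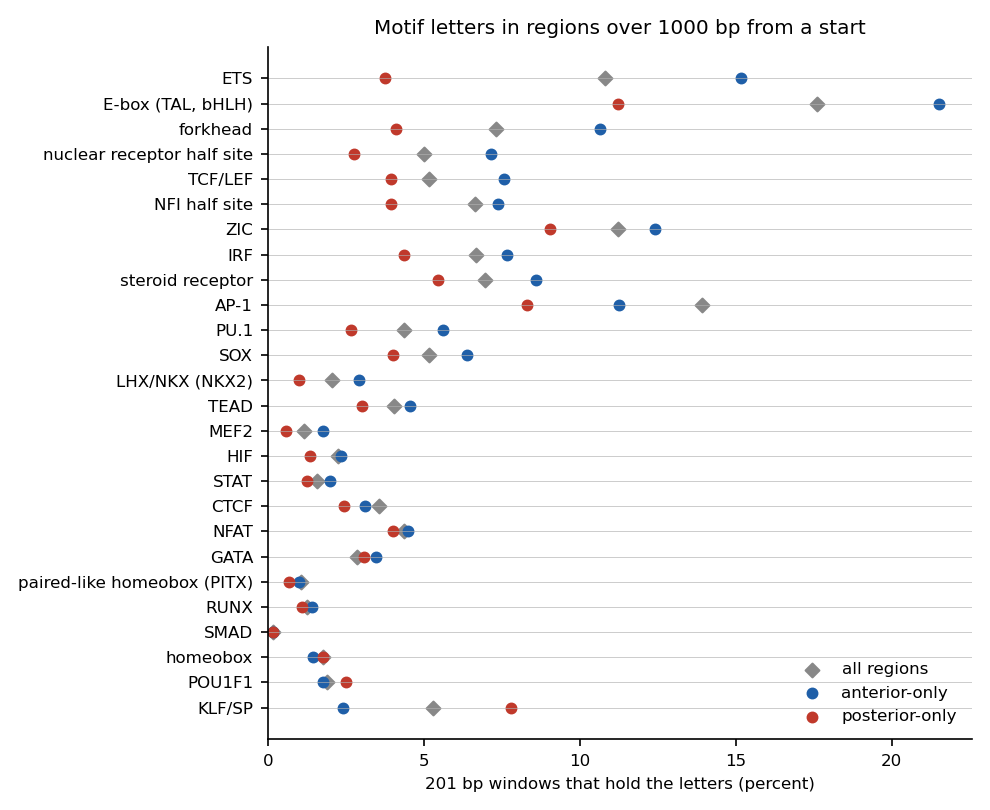
Percentage of windows of 100 bp to each side of the summit with the letters of each motif family (x axis), for anterior-only, posterior-only and all regions with the summit more than 1000 bp from a transcription start. ETS letters stand in 15.2% of anterior-only and 3.77% of posterior-only windows, and KLF/SP letters in 2.40% and 7.80%.

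Libraries that played no part in choosing the regions were searched for the same peaks, again among the 20000 highest of each list. Anterior-only regions had a peak in 69.5% (95% Wilson interval 67.3% to 71.5%) and 77.3% (75.3% to 79.1%) of cases in the stabilized anterior libraries, and in 35.5% and 38.7% in the stabilized posterior libraries. In the cerebellum libraries the share was 19.6% to 24.9%. The anterior-only set thus reappeared most in ECs of the same lobe. The background, the share of all 26598 regions with a peak, was 69.9% and 70.8% in the stabilized anterior libraries, 66.5% and 66.8% in the stabilized posterior libraries and 57.9% to 60.6% in the cerebellum libraries. In the stabilized anterior libraries, the anterior-only share of 69.5% was thus near its background of 69.9%, and that of 77.3% lay above its background of 70.8%. In the other 6 libraries the anterior-only shares lay below the background. Posterior-only regions had a peak in 30.2% (27.8% to 32.7%) of cases in each stabilized posterior library, and in 10.7% and 9.49% in the stabilized anterior libraries. Their share was 40.5% (37.9% to 43.1%) and 54.0% (51.4% to 56.6%) in WT cerebellum and 24.7% and 25.1% in stabilized cerebellum, below the background in each of the 8 libraries. For the 622 regions with folds above both anterior libraries the shares were 21.7% and 21.4% in the stabilized posterior libraries and 39.9% and 52.1% in WT cerebellum. For the 227 with no anterior peak they were 13.2% and 14.5%, and 30.0% and 38.3%. Among the 20000 highest peaks, the share of posterior-only regions found in WT cerebellum was therefore above that in the stabilized libraries of their own lobe. Regions in all 4 libraries reappeared in 87.2% to 98.4% of cases. The intervals cover counting error only.

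When each list was taken at its full filtered length, 99.3% and 99.9% of anterior-only regions had a peak in the stabilized anterior libraries, and 52.8% and 67.2% of posterior-only regions in the stabilized posterior ones. In WT cerebellum the full lists held 66.0% and 69.6% of posterior-only regions, a range that overlaps that of the stabilized posterior libraries. At full length the share over all 26598 regions was 89.8% and 90.4% in the stabilized anterior, 79.7% and 85.7% in the stabilized posterior and 68.1% and 66.5% in the WT cerebellum libraries. The anterior-only shares in stabilized anterior ECs thus lay above the background, the posterior-only shares in stabilized posterior ECs below it, and those in WT cerebellum close to it. Both WT cerebellum libraries carry the peak-name letters of the WT posterior libraries, and the stabilized libraries carry the others, so genotype and peak-name code cannot be told apart in these shares. The median fold of the peaks used was 7.88 and 7.71 in WT cerebellum, 8.86 and 8.57 in stabilized posterior and 12.2 and 13.3 in stabilized anterior libraries.

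**Figure D4:**
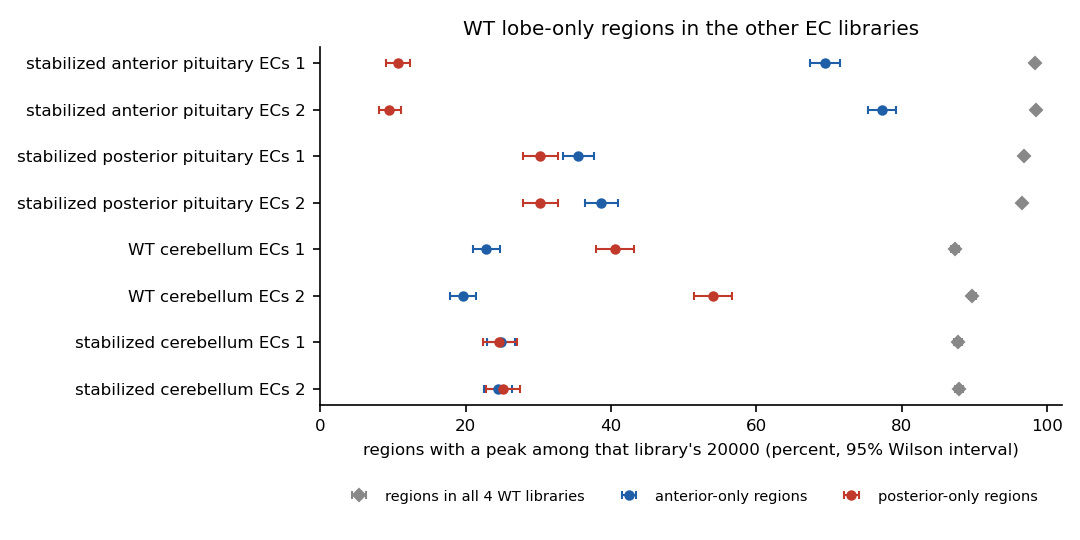
Percentage of anterior-only, posterior-only and all-4-library regions (x axis) with a peak among the 20000 highest of each of 8 EC libraries not used in the choice (y axis), with bars for 95% Wilson intervals. Anterior-only regions reappear most in the stabilized anterior libraries (69.5% and 77.3%) and posterior-only regions most in WT cerebellum (40.5% and 54.0%).

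RNA-seq libraries of GFP-positive cells of the same lobes and genotype, also 2 per lobe, were used to ask whether genes near lobe-only regions differed in RNA. The 4 libraries held 17260078 to 31604109 estimated reads. All 10 endothelial markers, such as Pecam1, Cdh5 and Kdr, had an ATAC-seq peak at the promoter in all 4 ATAC-seq libraries, against 50.7% to 51.1% of all protein-coding genes, and none of 15 markers of anterior pituitary endocrine cells, such as Gh and Pomc, had one in any. Of 10 pituicyte markers, 3 had a promoter peak in all 4 libraries (Lhx2, Col25a1 and Vim), of 9 mural markers 2 and 3 in the anterior and 1 and 2 in the posterior libraries, of 5 fibroblast markers 2 and 2, and 1 and 2, of 8 markers of neurons and other glia 0 and 0, and 1 and 1, and of 10 macrophage markers none. In RNA, the endothelial markers summed to 3316 and 4962 TPM in anterior and to 7252 and 5240 TPM in posterior ECs. The endocrine markers summed to 6884 and 4421 TPM in anterior and to 3379 and 478 TPM in posterior ECs. In GFP-negative cells they summed to 44250 and 61073 TPM in the anterior and to 54548 and 56689 TPM in the posterior lobe. In the posterior GFP-negative cells the gene Pomc alone was at 53738.5 and 55689.4 TPM. Among the 9 mural markers the sums were 188 and 224 TPM against 158 and 84.3 TPM, and among 10 macrophage markers 23.1 and 20.4 TPM against 7.44 and 1.16 TPM. Markers of pituicytes, the glia of the posterior lobe, summed to 63.8 and 109 TPM in anterior and 344 and 119 TPM in posterior ECs, those of fibroblasts to 19.0 and 24.0 TPM against 35.3 and 19.0 TPM, and those of neurons and other glia to 10.7 to 13.6 TPM in all 4. Single genes carried much of several sums. Pomc, the hormone precursor gene of corticotrophs and melanotrophs, was at 300 and 133 TPM in anterior and at 3307 and 470 TPM in posterior ECs without passing the test (edgeR adjusted p = 0.244), and the endocrine markers without it summed to 6584 and 4288 TPM against 71.6 and 8.26 TPM. The mural markers without Kcnj8 summed to 61.9 and 75.5 TPM against 149 and 77.8 TPM, the order opposite to that of the whole list. The macrophage markers without Mrc1 summed to 5.57 and 2.80 TPM against 7.39 and 0.578 TPM. The pituicyte markers without Vim, a filament gene also used by ECs, summed to 12.3 and 14.3 TPM in anterior ECs and to 13.9 TPM in posterior replicate 1, with posterior replicate 2 below these. Endocrine RNA was present in every EC library, with Gh, Prl and Cga called higher in anterior ECs (edgeR adjusted p = 0.00903, 0.000932 and 0.0334). Of the macrophage markers Mrc1 was called, at 17.5 and 17.6 TPM in anterior and 0.0449 and 0.581 TPM in posterior ECs (edgeR adjusted p = 0.0360). Gh and Mrc1 each had 1 anterior-only region within 100 kb, and Cga had 1 posterior-only region. The part of these other cells in the RNA differences was not tested. In bulk RNA, fewer cells of a type and less RNA per cell cannot be told apart.

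Of 17915 genes tested, 14563 were protein-coding, and of these 57 (0.391%) were called higher in anterior and 116 (0.797%) higher in posterior ECs, by an edgeR quasi-likelihood test (adjusted p under 0.05, change of 2-fold or more). Over all genes tested the calls were 61 and 117. Without posterior replicate 1 they were 524 and 353, and the calls near regions of the same lobe given next were 156 and 103. An anterior-only region lay within 100 kb of the gene body of 3639 protein-coding genes (25.0% of those tested), of which 31 (0.852%) were called higher in anterior and 24 (0.660%) higher in posterior ECs. Of 196 genes with 3 or more anterior-only regions, 5 (2.55%) were higher in anterior ECs and 2 (1.02%) in posterior ECs, and these genes were longer, with a median of 65259 bp against 23400.5 bp for genes with none. A posterior-only region lay within 100 kb of 2320 genes (15.9%), of which 46 (1.98%) were called higher in posterior and 9 (0.388%) higher in anterior ECs. For the 622 posterior-only regions above both anterior libraries, 1022 genes were near, with 25 (2.45%) higher in posterior ECs. For the 227 with no anterior peak, 406 genes were near, with 7 (1.72%). The median log2 fold change, anterior over posterior, was 0.04, 0.14 and 0.15 for genes with 1, 2 and 3 or more anterior-only regions and -0.02, -0.28 and -0.39 for genes with 1, 2 and 3 or more posterior-only regions, against 0.00 over all genes tested. Both shares called in the lobe of the region lay above their background, 0.852% against 0.391% and 1.98% against 0.797%, without a test of the difference. Most genes near lobe-only regions were not called in either direction.

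Of the 39 genes named by the rule, 29 lost their call in a fit of the 4 WT pituitary EC libraries alone. The adjusted p of that fit is given below where a named gene described with its levels lost its call. For called list and marker genes outside the 39, the result of that fit is not given. Genes that were near anterior-only regions and higher in anterior ECs included a potassium channel and a partner of TAL1. Kcnj8 encodes the pore of an ATP-sensitive potassium channel and had the clearest difference of these, at 127 and 148 TPM in anterior and 8.91 and 6.54 TPM in posterior ECs (log2 fold change 4.43, SE 0.43, edgeR adjusted p = 0.000244). Its anterior-only region, chr6:142558670-142559757, lies 12462 bp downstream of its start between genes, with folds of 12.1 and 13.6, no peak in posterior replicate 1 and a fold of 2.90 in posterior replicate 2. Kcnj8 is also known from mural cells and was 1 of the 9 mural markers, whose summed levels are given above. Of these 9, 2 were called higher in anterior ECs (Kcnj8 and Notch3) and 1 higher in posterior ECs (Pdgfrb, at 0.347 and 0.764 TPM against 4.86 and 3.23 TPM). Notch3 was low throughout, at 0.421 and 0.636 TPM against 0.155 and 0.089 TPM. Rgs5, the next in abundance in anterior ECs, was at 41.2 and 45.2 TPM against 123 and 59.4 TPM. Abcc9 was at 19.0 and 28.1 TPM against 5.69 and 12.0 TPM without passing the test. The log2 fold change was above 0 for 3 mural markers and below 0 for 6. The part of mural cells was not tested. Lmo2, the bridging partner of TAL1 in blood and vessel development, was at 454 and 627 TPM against 340 and 110 TPM (log2 fold change 1.62, SE 0.32, edgeR adjusted p = 0.0301). Of 3 anterior-only regions near Lmo2, that at chr2:104017424-104018014 had folds of 12.8 and 12.3 and none had a posterior peak. The Lmo2 call was lost without anterior replicate 1, without anterior replicate 2 or without posterior replicate 2 (adjusted p = 0.0534, 0.0678 and 0.0937), and in the fit of 4 libraries (0.170).

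The genes with the most anterior-only regions among those higher in anterior ECs were Kbtbd11 and Pcdh7, with 4 regions each and no posterior peak at any of the 8. Pcdh7, a protocadherin, was at 9.82 and 17.5 TPM against 3.41 and 2.02 TPM (log2 fold change 2.3, SE 0.44, edgeR adjusted p = 0.0249), and its intronic region chr5:57742956-57743498 had folds of 16.9 and 10.5. The call was lost without anterior replicate 2 or posterior replicate 2 (adjusted p = 0.0687 and 0.0981). Kbtbd11, a Kelch and BTB domain protein, was at 71.3 and 13.8 TPM against 0.816 and 1.92 TPM (log2 fold change 3.25, SE 0.49, edgeR adjusted p = 0.00626), and was at 124 and 22.1 TPM in anterior GFP-negative cells, whose part was not tested. Its 4 regions had folds of 4.05 to 8.74. Chn2, a GTPase-activating protein for Rac, was at 41.2 and 42.2 TPM against 19.8 and 10.9 TPM and had 3 intronic regions with folds of 5.21 to 9.56. Rasd1, a glucocorticoid-inducible Ras-related protein, was at 112 and 209 TPM against 53.5 and 17.1 TPM, with 2 regions at folds of 9.01 to 16.1. In the fit of 4 libraries the calls of Kbtbd11, Chn2 and Rasd1 were lost (edgeR adjusted p = 0.0646, 0.174 and 0.0566). Rasd1 was also at 100 and 113 TPM in anterior GFP-negative cells, and Chn2 at 37.3 and 120 TPM in posterior GFP-negative cells.

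The rest of this group were Nceh1, Trp53i11, Fnbp1l, Mospd2, Ankrd6 and Rps18. The calls of Nceh1, Fnbp1l, Mospd2, Trp53i11 and Ankrd6 were each lost when at least 1 library was left out, with edgeR adjusted p from 0.0503 to 0.294. Ankrd6 was at 0.689 and 1.2 TPM in anterior ECs and was listed at 0 in both posterior libraries, was at 1.58 to 15.1 TPM in the 4 GFP-negative libraries, and lost its call in the fit of 4 libraries (edgeR adjusted p = 0.467). Rps18 has many near-identical copies in the genome, so its value is uncertain, and its call was lost in the fit of 4 libraries (edgeR adjusted p = 0.436).

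Genes near posterior-only regions and higher in posterior ECs included forkhead factors, a Wnt receptor, secreted proteins and a taurine transporter. Sema3c was at 0.00844 and 0.00442 TPM in anterior and 56.1 and 29.6 TPM in posterior ECs (edgeR adjusted p = 3.48e-05), and its posterior-only region near the start had no anterior peak. Fzd6, a Wnt receptor of the Frizzled family, was at 0.647 and 0.797 TPM against 15.3 and 15.1 TPM (log2 fold change -4.20, SE 0.47, edgeR adjusted p = 0.000667). The region nearest to it that ranked among posterior peaks only, chr15:38938440-38939105, had folds of 11.2 and 10.8 in posterior and 6.33 and 7.90 in anterior libraries, so that it was open in both lobes and higher in the posterior one. Slc6a6, the taurine transporter, was at 18.8 and 17.9 TPM against 253 and 158 TPM (log2 fold change -2.81, SE 0.30, edgeR adjusted p = 0.000616). Its intronic region chr6:91721211-91721967 had folds of 7.09 and 6.88 in posterior and 3.49 and 2.93 in anterior libraries. Another posterior-only region in its introns, chr6:91737997-91738344, had folds of 3.65 and 3.30 in posterior and 4.67 and 3.18 in anterior libraries, which overlap. Sparcl1, a secreted matricellular protein, was at 32.7 and 79.3 TPM against 725 and 579 TPM (log2 fold change -3.33, SE 0.35, edgeR adjusted p = 0.000485). An intronic region of Sparcl1, chr5:104102718-104103337, had folds of 6.70 and 6.95 in posterior and 4.59 and 2.63 in anterior libraries. An anterior-only region with folds of 10.7 and 9.51, chr5:104161268-104161766, also lay near Sparcl1, upstream of it, on the side opposite to its RNA. Vwf, the von Willebrand factor of EC granules, was at 0.296 and 0.137 TPM against 6.31 and 25.7 TPM (log2 fold change -8.01, SE 0.59, edgeR adjusted p = 3.48e-05), and its upstream region chr6:125529555-125529960 had folds of 6.67 and 4.12 in posterior libraries and of 2.93 in anterior replicate 2 alone. Several of these genes also had RNA in posterior GFP-negative cells, with Sparcl1 at 374 and 586 TPM, Slc6a6 at 45.3 and 156 TPM, Vwf at 0.324 and 33.8 TPM and Fzd6 at 2.56 and 18.3 TPM, whereas Sema3c was at 0.785 and 1.4 TPM. The part of these cells was not tested.

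Both FOXF forkhead factors were listed at 0 TPM in the anterior ECs. Foxf2 was at 6.90 and 7.51 TPM in posterior ECs (edgeR adjusted p = 0.000156) and Foxf1 at 12.6 and 1.54 TPM (edgeR adjusted p = 0.0087). Both calls were lost in the fit of 4 libraries (edgeR adjusted p = 0.131 and 0.170). Their promoters were open in both lobes. The region at the Foxf2 start, chr13:31625440-31626446, had folds of 4.58 and 5.69 in posterior and 3.20 and 3.79 in anterior libraries, and the region 116 bp upstream of Foxf1, chr8:121083518-121084460, had folds of 6.13 and 5.87 in posterior and 5.05 and 6.51 in anterior libraries. The Foxf2 posterior folds lay above both anterior ones and the Foxf1 folds overlapped. Foxf1 also had an anterior-only region, chr8:121152347-121152961, with folds of 6.99 and 12.2 in anterior libraries and of 2.90 in posterior replicate 2.

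Other genes of this group were Adam15, a membrane metalloproteinase, at 38.4 and 29.4 TPM against 228 and 246 TPM (log2 fold change -2.49, SE 0.27, edgeR adjusted p = 0.000616), and Acvrl1, the BMP receptor ALK1, at 24.8 and 57.7 TPM against 197 and 162 TPM. Enpp2, which encodes the lysophospholipase autotaxin, was at 3.53 and 5.74 TPM against 32.3 and 35.0 TPM, and its intronic region chr15:54919964-54920424 had folds of 10.4 and 9.10 in posterior and 4.59 and 5.27 in anterior libraries. Trps1 was at 1.2 and 0.305 TPM against 8.58 and 2.61 TPM (edgeR adjusted p = 0.0264). A second intronic region of Trps1, chr15:50889849-50890516, 298 bp from its start, had folds of 10.1 and 10.3 in posterior and 6.33 and 6.73 in anterior libraries. Flt1, the VEGF receptor 1 gene, was at 210 and 232 TPM against 1103 and 1055 TPM (log2 fold change -1.81, SE 0.30, edgeR adjusted p = 0.0118) and had regions of both kinds: 2 intronic anterior-only regions with folds of 5.42 to 10.0 and 2 upstream posterior-only regions, of which chr5:147769663-147770252 had folds of 5.81 and 5.02 and no anterior peak. The other, chr5:147812389-147813010, had folds of 4.93 and 7.14 in posterior and 6.20 and 8.08 in anterior libraries, so the fold was not higher in the posterior lobe. Serpine2, Podxl, Tspan5, Abcc4 and Col18a1 were also higher in posterior ECs and near posterior-only regions. At Podxl, Tspan5, Abcc4, Col18a1 and Acvrl1, no posterior-only region had folds above both anterior ones. At Adam15, Enpp2 and Serpine2, some of the posterior-only regions did and others did not. Without anterior replicate 1, the edgeR adjusted p of Flt1 and Acvrl1 was 0.0519. The calls of Trps1, Podxl, Tspan5, Abcc4 and Serpine2 were also lost without 1 or more libraries, with adjusted p from 0.0507 to 0.144. In anterior GFP-negative cells Enpp2 was at 20.1 and 28.1 TPM and Trps1 at 18.3 and 26.2 TPM, above their anterior ECs. In the fit of 4 libraries the calls of Acvrl1, Enpp2, Flt1, Col18a1, Abcc4 and Trps1 were lost (edgeR adjusted p = 0.0639, 0.0854, 0.120, 0.505, 0.125 and 0.452).

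Over the named genes, 39 posterior-only regions lay near, of which 15 had folds above both anterior libraries and 3 (at Sema3c, Trps1 and Flt1) had no anterior peak. In the whole posterior-only set these counts were 622 and 227 of 1370. Of 45 anterior-only regions near named genes, 45 had folds above both posterior libraries and 41 had no posterior peak. In the whole anterior-only set the counts were 1867 and 1705 of 1867, so nothing particular to the named genes is read from this.

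**Figure D5:**
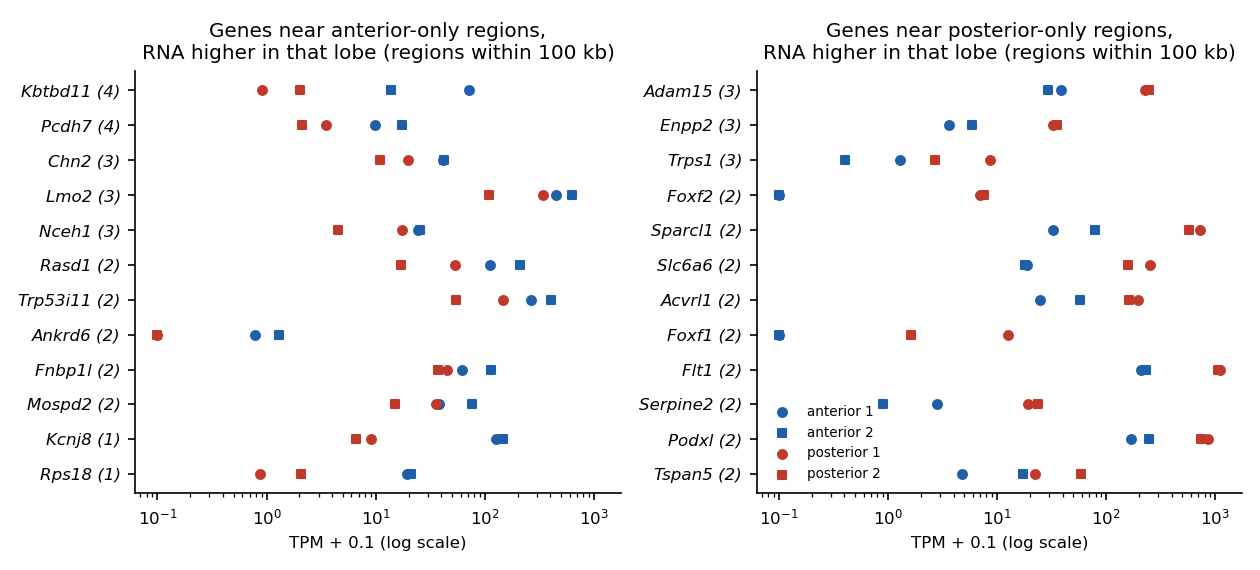
RNA level as TPM + 0.1 on a log axis (x axis) in the 4 WT pituitary EC libraries, for the 12 genes with the most anterior-only regions among those higher in anterior ECs (left) and the 12 with the most posterior-only regions among those higher in posterior ECs (right), with the number of regions in parentheses. Kcnj8 sits at 127 and 148 TPM in anterior and 8.91 and 6.54 TPM in posterior ECs, and Adam15 at 38.4 and 29.4 TPM against 228 and 246 TPM. Genes listed at 0 sit at the left edge of the points.

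Some genes near lobe-only regions differed in RNA in the opposite direction. Colgalt2, a collagen galactosyltransferase, had 2 anterior-only regions near it, both in introns of the neighboring gene Rgl1, with folds of 5.16 to 10.7 and no posterior peak. Colgalt2 was at 5.89 and 7.35 TPM in anterior and 46.6 and 32.0 TPM in posterior ECs (log2 fold change -2.37, SE 0.27, edgeR adjusted p = 0.000676). Pde7b, a cAMP phosphodiesterase, had 3 anterior-only regions with folds of 5.70 to 15.3 and was at 8.86 and 6.82 TPM against 52.2 and 52.7 TPM. St3gal1, a sialyltransferase, and Sema3g, an arterial semaphorin, were also near anterior-only regions and higher in posterior ECs. The calls of Pde7b, St3gal1 and Sema3g were lost without 1 or more libraries, with edgeR adjusted p from 0.0616 to 0.203. In the other direction, Esr1, the estrogen receptor alpha gene, had a posterior-only region, chr10:4614318-4614559, with folds of 5.69 and 6.41 in posterior and 6.77 and 6.59 in anterior libraries, so the fold was not higher in the posterior lobe. Esr1 was at 5.96 and 2.48 TPM in anterior and 0.0349 and 0.012 TPM in posterior ECs (edgeR adjusted p = 0.0142), and at 44.2 and 42.1 TPM in anterior GFP-negative cells. Mt1, a metallothionein, was at 56.5 and 68.6 TPM against 17.6 and 3.32 TPM and at 294 and 457 TPM in anterior and 373 and 97.0 TPM in posterior GFP-negative cells. Its posterior-only region, chr8:94172440-94172804, had folds of 3.14 and 3.39 in posterior and 3.51 and 4.05 in anterior libraries, and it also had an anterior-only region, chr8:94183158-94183538, with folds of 5.81 and 5.37 and no posterior peak, on the side of its RNA. The part of these other cells was not tested. Minos1, Notch3 and Mboat1 were also near 1 or more posterior-only regions and higher in anterior ECs, and the folds at Notch3 and Mboat1 were not above both anterior ones. The Minos1 call was lost without anterior replicate 1 or posterior replicate 2 (edgeR adjusted p = 0.0838 and 0.0658), and Mboat1 was listed at 0 in both posterior libraries. In the fit of 4 libraries the calls of Pde7b, Esr1, Mt1, Notch3 and Mboat1 were lost (edgeR adjusted p = 0.109, 0.252, 0.249, 0.866 and 0.496).

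Gene lists of vessel biology were read against the background, in which 25.0% of tested genes had an anterior-only and 15.9% a posterior-only region within 100 kb. Among 8 genes of the fenestral diaphragm and caveolae, 5 had an anterior-only and 2 a posterior-only region. Plvap, the diaphragm protein itself, had 1 anterior-only region and was at 845 and 1028 TPM in anterior and 1160 and 1112 TPM in posterior ECs, and did not pass the RNA test (edgeR adjusted p = 1). Cav1, the caveolin of EC caveolae, had neither kind of region and was higher in posterior ECs, at 68.4 and 24.1 TPM against 360 and 242 TPM (log2 fold change -3.42, edgeR adjusted p = 0.000151), the single gene of the list to be called.

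Among 20 genes of barrier transport and junctions, 4 had an anterior-only and 5 a posterior-only region, and 2 were higher in anterior and 3 in posterior ECs. Abcc4, an efflux transporter, was both near a posterior-only region and higher in posterior ECs, at 5.07 and 2.89 TPM against 13.2 and 16.6 TPM. Slco1c1, a thyroid hormone transporter of brain vessels, was at 0 and 0.0162 TPM against 2.51 and 1.72 TPM (edgeR adjusted p = 3.48e-05) with neither kind of region near it. Among 21 Wnt pathway genes, 6 had an anterior-only region, with 3 at Tspan12, 2 at Lef1 and 2 at Tcf7l1, and 4 a posterior-only region. None was higher in anterior and 2 were higher in posterior ECs: Fzd6, and Reck, a co-receptor for Wnt7 ligands, which was at 1.36 and 1.32 TPM against 6.92 and 5.75 TPM (edgeR adjusted p = 0.00328) with no lobe-only region near it.

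Among 11 ETS factor genes, 9 had an anterior-only region within 100 kb (3 at Erg, and 2 each at Fli1, Ets1, Ets2 and Elf1). A posterior-only region lay near 3 of the 11, and none of the 11 was called in either direction by edgeR. The ETS gene with the lowest adjusted p was Elf1, at 43.9 and 41.1 TPM against 24.4 and 19.6 TPM (adjusted p = 0.0634). Among 12 forkhead and ZIC genes, 7 had an anterior-only and 4 a posterior-only region, and the 2 called, Foxf1 and Foxf2, were higher in posterior ECs. Among 17 KLF, MEF2 and AP-1 genes, 8 and 2 had such regions and none was called. Among 20 homeobox, T-box and nuclear receptor genes, 9 had an anterior-only and 5 a posterior-only region, with 4 anterior-only regions at Meis1 and 2 at Meis2. Meis2, a homeobox factor, was at 621 and 1144 TPM against 124 and 141 TPM, groups that do not overlap, but did not pass the test (edgeR adjusted p = 0.257). Tbx3, a T-box repressor, was called higher in posterior ECs, at 1.78 and 1.79 TPM against 8.02 and 9.30 TPM (edgeR adjusted p = 0.0152). Among 11 SOX, GATA and TAL genes, 3 had an anterior-only region, including Lmo2, and Sox17 had 2 posterior-only regions.

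Among 15 genes of VEGF and angiopoietin signaling, 8 had an anterior-only region, with 5 at Angpt2 and 4 at Kdr, the main VEGF receptor, and 3 a posterior-only region. Flt1 alone was called. Among 17 genes of basement membrane and matrix, 9 had at least 1 of 25 anterior-only regions, with 5 at Col4a1, 4 at Col4a2 and 4 at Lama4, genes of collagen IV and laminin chains that form the EC basement membrane. A posterior-only region lay near 3 of the 17. Col4a1 and Col4a2 stand side by side, so that 1 region can count for both. Their RNA ran the other way without passing the test, at 662 and 1160 TPM against 1691 and 4832 TPM for Col4a1 (edgeR adjusted p = 0.399). Fn1, fibronectin, with no lobe-only region near it, was at 3.34 and 1.05 TPM against 97.4 and 126 TPM (log2 fold change -5.01, edgeR adjusted p = 0.000102). Among 15 guidance genes, 9 had an anterior-only and 3 a posterior-only region, and Sema3c and Plxna2 were higher in posterior ECs. Among 17 BMP and TGF-beta genes, 7 and 5 had such regions and Acvrl1 was called.

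For 14 Notch and arterial genes, 4 had an anterior-only and 2 a posterior-only region, and the 3 called, the gap junction gene Gja5, the kinase gene Bmx and Sema3g, were higher in posterior ECs. Gja5 was listed at 0 in both anterior libraries and was at 3.56 and 3.71 TPM in posterior ECs (edgeR adjusted p = 0.000951). For 10 venous and leukocyte adhesion genes the counts were 4 and 2, with 3 anterior-only regions at Lyve1, which was at 0 to 1.04 TPM in the 4 libraries. Vwf and Vcam1, the adhesion receptor, were higher in posterior ECs, Vcam1 at 0 and 0.00657 TPM against 4.93 and 7.10 TPM (edgeR adjusted p = 3.48e-05). Each list was set beside the background shares without a test, and list genes differ in length, and longer genes had more regions within 100 kb.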

How the data were processed

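Per the labels and the study's methods, the authors sorted GFP-positive cells, aligned ATAC-seq reads to GRCm38 (mm10) with Bowtie2 2.3.2, marked duplicates for removal with Picard, and used MACS2 2.1.1.20160309 on every library by itself, with reads shifted and extended around transposase cuts. In the deposited peak lists, the fold enrichment is a ratio to local background and p and q are given as −log10 values. RNA-seq was quantified by the authors with Salmon 0.10.2 against Ensembl release 92, and the deposited files hold estimated counts and TPM per transcript.

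From these files, peaks were filtered as described, merged over libraries at an overlap of 1 bp, and placed on GENCODE M21 genes, in place of Ensembl 92. A promoter region had its strongest summit within 1000 bp of a protein-coding start, and a region within 100 kb of a gene body was near that gene. Motif letters were searched in windows of 100 bp to each side of the summit on both strands. Of 130740 transcripts, 130338 matched M21, and estimated counts were rounded, summed to genes and fitted with edgeR 4.0.16 (TMM, filterByExpr, quasi-likelihood, Benjamini-Hochberg adjustment) over all 12 GFP-positive RNA-seq libraries of pituitary and cerebellum, for the contrast of the WT lobes. One of these, a stabilized anterior library whose tissue label conflicts with its title, was placed by its title. It entered the gene filter, the normalization and the estimate of the spread, but neither side of the contrast. DESeq2 1.42.0 was an alternative. Python 3.11.15 with pandas 2.3.3, numpy 2.4.6, scipy 1.17.1, pysam 0.24.0 and matplotlib 3.10.9, and R 4.3.3 were used. The overlap and the RNA fit were checked on simulated data.

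Named regions were the 10 lobe-only regions per lobe with the highest lower fold of both replicates and no peak deposited for the other lobe. Named loci were the 5 with the most regions per lobe. Named genes were the 12 protein-coding genes with the most regions among those higher in that lobe, the 5 with the most among those higher in the other lobe, list genes that had a region and were called, and marker genes. One gene that met the rule is not reported here. List genes without both were named after their values were seen. Members, rule and lists were chosen with earlier results of these data known.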

Additional observations from a re-analysis of the deposited data

How the results depend on the processing

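No named gene changed direction under any alternative. With 10000 peaks per library there were 487 anterior-only and 559 posterior-only regions, with no limit on rank 13450 and 316, and with a fold over 4 and a −log10 q over 5 3172 and 470. Ranking by fold (2405 and 1880) moved neither count by over 1.5 times. Asking for a 50% overlap with the summit inside (1867 and 1370) could not change the counts. Each peak lies wholly within the region it was merged into, so nothing is read from that setting. Of the alternatives chosen after seeing the data, no peak in the other lobe left 1705 and 227 regions, and folds above both libraries of the other lobe 1867 and 622, dropping mostly masked windows 1835 and 934, and dropping chromosome Y 1865 and 1267. Leaving out 1 library gave 2439 to 3670 anterior-only and 1825 to 2817 posterior-only regions, the highest counts coming without anterior replicate 2 and without posterior replicate 1, since presence is then asked of fewer libraries. With summits within 2500 bp, 11.3% and 16.6% of regions were at promoters, and with no limit on rank 3.48% of posterior-only regions were, against 3.96% of those with no anterior peak and 6.59% of those above both anterior libraries. The share of windows with a motif was divided by that in all regions. With no limit on rank this ratio went from 1.42 to 1.2 (ETS), 1.94 to 1.36 (forkhead), 1.83 to 1.25 (TCF/LEF) and 1.67 to 1.19 (SOX) in anterior-only regions, and from 0.713 to 0.536 (forkhead), 0.912 to 0.517 (TCF/LEF) and 1.02 to 0.409 (SOX) in posterior-only regions. In the latter it went from 0.380 to 0.497 for ETS without mostly masked windows, and to 0.492 for SOX in regions with no anterior peak. Taking every filtered peak, 99.3% and 99.9% of anterior-only regions were found in the stabilized anterior libraries and 52.8% and 67.2% of posterior-only regions in the stabilized posterior ones (all regions 89.8% and 90.4%, and 79.7% and 85.7%), and 13.2% and 14.5% of posterior-only regions with no anterior peak among the 20000. The RNA calls (higher in anterior, higher in posterior) were 61 and 117 with edgeR, 483 and 540 with DESeq2, 315 and 423 with no filter on low counts and 23 and 34 in a fit of the 4 WT pituitary libraries alone. Leaving out 1 library gave 60 to 524 and 108 to 353 calls, and without posterior replicate 1 they were 524 and 353. Genes called near regions of the same lobe, 31 and 46, became 142 and 145 (DESeq2), 113 and 130 (no filter) and 17 and 21 (4 libraries), and 24 to 156 and 42 to 103 when 1 library was left out, again highest without posterior replicate 1. With no anterior peak 7 genes near posterior-only regions were called, and 25 near those above both anterior libraries. With a replicate block the calls were 74 and 147, and 38 and 59 near regions. The deviations of same-numbered libraries had a correlation of -0.0129 across genes, and whether these share mice is not stated in the sources used here, so the pairing is unknown. All 39 named genes kept their call with the block. Of 39 named genes, 9 were called in every setting (among them Adam15, Colgalt2, Fzd6, Kcnj8, Sema3c, Slc6a6, Sparcl1 and Vwf), 21 with any 1 library left out, and 29 lost their call in the fit of 4 libraries. The cause of these changes was not tested. Reads behind the peaks are unknown, so no floor or interval for a missing peak can be given.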
